A study of Mus musculus with 28 samples.

Results

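A single-neuron RNA-seq series of 28 neurons held 15 RFP-positive neurons after ethanol (EtOH), and these were divided into 2 sides chosen by their own Kcnn2 value. The 6 neurons with a Kcnn2 value over 4 are called Kcnn2-high, and the 9 neurons with a value of 4 or less are called Kcnn2-low. They were collected at postnatal day 30 in M1, the primary motor cortex, of CD1 mice. All carried 3 plasmids electroporated in utero into M1 at embryonic day 15: pHSE-FLPo, a recombinase under a heat shock response element, pFRT-RFP, the reporter that the recombinase switches on, and pCAGIG, which labels each electroporated cell with GFP. All 15 neurons showed both GFP and RFP, which the submitters take as a response to heat shock, and the dams had been injected with EtOH on embryonic days 16 and 17. The protocol gives 4.0 or 1.0 g/kg of EtOH and does not say which of them a neuron received. For comparison, the series holds 7 RFP-negative neurons after EtOH and 6 RFP-negative neurons after phosphate-buffered saline (PBS), with the same plasmids. The electroporation reaches a fraction of the cortical cells, so each neuron is a labelled cell among unlabelled ones, and which animal a neuron came from is not given.

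Kcnn2 encodes SK2, a potassium channel that opens when calcium binds to the calmodulin held on its intracellular tail. The current that flows through it contributes to the afterhyperpolarization that follows action potentials and dampens repeated firing, and in dendritic spines it shunts synaptic responses. Channel activity is tuned by protein kinase CK2 and protein phosphatase 2A, which act on the bound calmodulin, and protein kinase A moves the channel away from the synaptic surface.

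Values are given as deposited, on a log scale taken as log2, for 1023 genes other than Kcnn2. Over the whole table, 28672 values ran from 1.00 to 13.2 and had a low, a middle and an upper mode, with troughs near 4 and near 8. Read totals per neuron were not part of the table, so sequencing depth is unknown. Since no animal is named, each side of the split was treated as 1 sample, and no p-value is given. A value in 6 of 6 neurons has an exact 95% interval of 54.1 to 100% of such neurons, a value in 0 of 9 allows a share of at most 33.3% and a value in 0 of 6 at most 50%, taking 3 neurons as the limit and covering counting error only. These limits take neurons as independent, which cannot be checked without the animals.

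The level of Kcnn2 chose the sides and is given only as a description. In the Kcnn2-high neurons 8, 2, 14, 15, 13 and 3 it was 9.77, 7.46, 6.22, 5.45, 4.89 and 4.18. In the Kcnn2-low neurons it lay between 1.36 and 3.11, with a median of 1.92. The neurons next to the dividing value were neuron 3 at 4.18 and neuron 1 at 3.11. All 13 RFP-negative neurons lay below the dividing value, at 1.69 to 3.11 after EtOH and at 1.82 to 2.68 after PBS. Kcnn2 (ENSMUSG00000054477) lies on chromosome 18 from 45268860 to 45686024 (GRCm38, plus strand), and its exons overlap transcripts of the opposite strand by up to 323 bases, and since counting is not stated to use strand, reads of these cannot be told apart from its own.

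The sides also differed in how their values were spread over the modes. Kcnn2-high neurons had 318, 398 and 433 genes over 4 (lowest, median and highest), against 273, 344 and 396 in Kcnn2-low neurons. The excess lay in the middle range. The number of genes over 4 and up to 8 was 167, 245 and 285 in Kcnn2-high neurons, against 125, 166 and 234 in Kcnn2-low neurons, while the number over 8 was 133, 146 and 190 against 141, 174 and 236. The median of a neuron's values over 4 was accordingly 6.80 in Kcnn2-high neurons (range 6.30 to 7.88) and 8.20 in Kcnn2-low neurons (range 6.80 to 8.96). Neurons 13, 14 and 15 held the largest numbers of middle-range values, 262, 247 and 285, and their own Kcnn2 values lay in that range too. So did the Kcnn2 values of neurons 2 and 3, which held 243 and 180 middle-range values. Across the 15 neurons, Kcnn2 had a Spearman rho of 0.64 with the number of middle-range values and of 0.36 with the number of genes over 4. The part of this spread in the gene differences described next was not tested. A value without neurons 13, 14 and 15 is therefore given where it makes a printed gene difference over 1.5 times smaller, and for some other genes and lists. The differences of Calm2, Calm3, Prkar2a, Prkar2b, Creb1, Rpl5, Hspa5, Pdia4 and Atf4 were not computed without these neurons, so no such value exists for them.

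**Figure D1:**
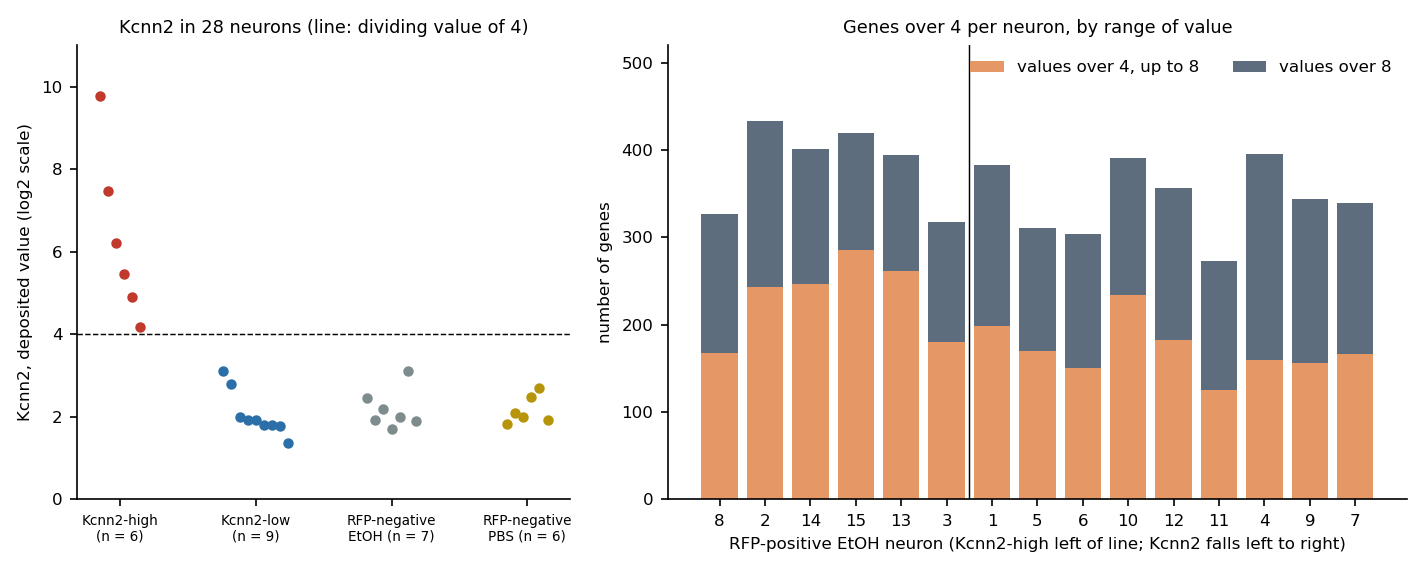
Left, the deposited Kcnn2 value (log2 scale) of each of the 28 neurons, with the dividing value of 4 as a dashed line. Right, the number of genes over 4 in each RFP-positive EtOH neuron, split into values up to 8 and values over 8, with Kcnn2-high neurons left of the line. Neurons 13, 14 and 15 have the most middle-range values, 262, 247 and 285.

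Setting the sides against each other, the transcription factor gene Tcf4 and the kinesin gene Kif21a had the largest positive differences of means in Kcnn2-high neurons. The largest negative ones were those of Eif4g2, a translation initiation factor, and Sqstm1, the autophagy receptor p62. Differences of means, Kcnn2-high minus Kcnn2-low, were 2 or more for 112 of the 1023 genes (10.9%) and -2 or less for 96 (9.38%). The median over all 1023 genes was 0.05, with higher means for 523 (51.1%) and lower means for 500 (48.9%). The median Spearman correlation across genes was 0.17 between Kcnn2-high neurons (15 pairs), 0.20 between Kcnn2-low neurons (36 pairs) and 0.15 between neurons of different sides (54 pairs). The most similar other neuron was on the same side for 4 of 6 Kcnn2-high and for 4 of 9 Kcnn2-low neurons. The median correlation of a neuron was larger with its own side than with the other for 4 of 6 Kcnn2-high and 8 of 9 Kcnn2-low neurons.

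Counts of large differences depended on how neurons were scaled. When neurons were aligned on the median of their values over 4, the difference of every gene moved up, the median over all genes became 1.11, and 302 genes were higher and 21 lower by 2. With arithmetic means in place of means of log values, the median became -0.38 and the counts were 206 and 312. Without neurons 13, 14 and 15 they were 146 and 110, with a median of -0.12. The signs of the 24 genes named next for their size held under all of these settings. These genes were picked for the largest differences in the same neurons, so kept signs say little.

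Tcf4, which encodes a basic helix-loop-helix E protein that binds E-box DNA, lay at 6.31, 9.66 and 11.45 (lowest, median and highest) in Kcnn2-high neurons and at 2.31, 3.33 and 8.40 in Kcnn2-low neurons. It was over 4 in 6 of 6 against 3 of 9 neurons, and the means of 9.21 ± 1.77 and 4.46 ± 2.33 (SD, n = 6 and 9) differed by 4.75. The sides overlapped, since the Kcnn2-low neurons 5, 9 and 12 had 8.40, 7.63 and 6.32. The RFP-negative EtOH neurons, whose Kcnn2 was low, had a Tcf4 mean of 7.65 ± 3.18 with 6 of 7 over 4, so a low Kcnn2 value did not go with a low Tcf4 value there. Without neurons 13, 14 and 15 the Tcf4 difference was 4.66.

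Id2 encodes a helix-loop-helix protein without a DNA-binding region that pairs with E proteins. It was over 4 in 0 of 6 Kcnn2-high neurons, at 1.31, 2.46 and 3.89, against 6 of 9 Kcnn2-low neurons, at 1.92, 6.34 and 9.63. The difference of means was -3.36, and -2.85 without neurons 13, 14 and 15. The 3 Kcnn2-low neurons with Id2 below 4 were 1, 6 and 12. In RFP-negative neurons Id2 was over 4 in 1 of 7 after EtOH and in 1 of 6 after PBS.

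Kif21a, a kinesin motor of axonal transport, lay at 5.17, 7.03 and 10.05 in Kcnn2-high neurons and at 1.76, 1.86 and 6.68 in Kcnn2-low neurons. It was over 4 in 6 of 6 against 2 of 9 neurons, differed by 4.49, and the sides overlapped through the Kcnn2-low neuron 7 at 6.68. Ncam1, the neural cell adhesion molecule, was over 4 in 6 of 6 against 3 of 9 neurons, with means of 8.22 ± 1.54 and 4.38 ± 2.30. Tcf4, Kif21a and Ncam1 were the 3 genes (0.293% of 1023) over 4 in all Kcnn2-high and in 3 or fewer Kcnn2-low neurons. Among RFP-negative neurons Kif21a averaged 3.52 ± 2.23 after EtOH, with 2 of 7 over 4, and 3.06 ± 2.25 after PBS, with 1 of 6 over 4.

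A further 8 genes (0.782%) were over 4 in at least 4 of 6 Kcnn2-high neurons and in 0 of 9 Kcnn2-low neurons: Cpeb4, Gtf3c2, Ncoa6, Nfat5, Npdc1, Rgs14, Syt13 and Tollip. This pattern of presence and the others counted here were chosen after the values had been seen. Cpeb4, an RNA-binding protein that regulates translation of polyadenylated messages, lay at 3.11, 6.08 and 10.45 in Kcnn2-high neurons and at 1.42, 2.62 and 3.56 in Kcnn2-low neurons, a difference of 3.59. Tollip, an adaptor of Toll-like receptor signalling, differed by 3.68 and Npdc1, a neuronal membrane protein, by 3.97. In each of these 3 genes the lowest Kcnn2-high neuron lay below the highest Kcnn2-low one, at 3.11 against 3.56 for Cpeb4, 3.12 against 3.27 for Tollip and 3.05 against 3.60 for Npdc1. Cpeb4 and Tollip were each over 4 in 1 of 7 RFP-negative EtOH neurons and 1 of 6 PBS neurons, while Npdc1 was so in 0 of 7 and 2 of 6.

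**Figure D2:**
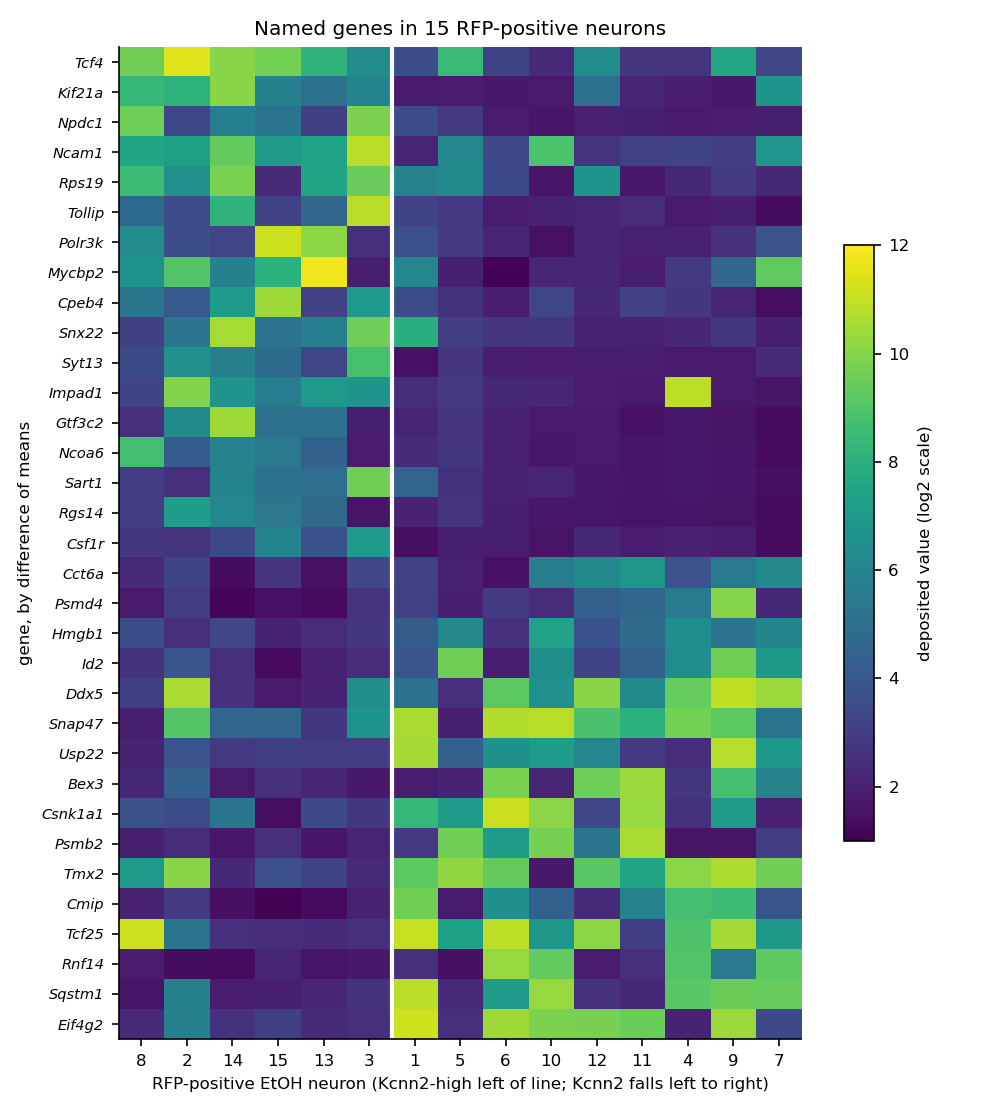
Deposited value (log2 scale, colour) of 33 genes, named for a large difference, for separation of the sides or for rank correlation with Kcnn2, one row per gene and one column per RFP-positive EtOH neuron, with Kcnn2-high neurons left of the white line. Tcf4, Kif21a and Ncam1 are over 4 in all 6 Kcnn2-high neurons, and Cmip, Hmgb1, Id2 and Usp22 in 0 of them.

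The 12 largest positive differences also took in Rps19, Polr3k, Mycbp2, Snx22, Syt13 and Impad1, with differences between 3.45 and 3.70. Snx22 shares up to 496 bases of exon with Ppib, read from the other strand. Rps19, a protein of the small ribosomal subunit, was over 4 in 5 of 6 against 3 of 9 neurons, and Mycbp2, a ubiquitin ligase of axon development, in the same numbers. Polr3k, a subunit of RNA polymerase III, rested on 3 Kcnn2-high neurons, with 11.15 in neuron 15, 10.12 in neuron 13 and 6.32 in neuron 8, and its difference of 3.64 was 1.62 without neurons 13, 14 and 15. Mycbp2 at 3.61 was 2.28 without them. Impad1, a phosphatase of the Golgi, had the single highest value of 10.91 in a Kcnn2-low neuron, number 4, and its difference of 3.45 was 0.04 with arithmetic means.

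Sides that did not overlap at all were rare. Every Kcnn2-high neuron lay above every Kcnn2-low neuron for 2 of 1023 genes (0.196%) and below it for 1 (0.0978%). Syt13, a synaptotagmin, lay at 3.29 to 8.81 in Kcnn2-high and at 1.55 to 2.68 in Kcnn2-low neurons, a gap of 0.61. Csf1r, the CSF1 receptor and a marker of microglia, lay at 2.70 to 6.95 and at 1.31 to 2.23, a gap of 0.47, and 4 of the 6 Kcnn2-high values were below 4. Syt13 was over 4 in 1 of 7 RFP-negative EtOH neurons and in 3 of 6 PBS neurons, whose Kcnn2 was low. The count of genes with Kcnn2-high neurons above was 5, 8, 4 and 4 without neurons 1, 3, 7 and 8, and 7 without neurons 13, 14 and 15. The count with Kcnn2-high neurons below was 2 without each of neurons 2, 6, 7 and 15. Csf1r shares up to 873 bases of exon with Hmgxb3, read from the other strand, and reads of both may be mixed in its values.

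Of the 12 largest negative differences, the first was that of Eif4g2. It was over 4 in 1 of 6 Kcnn2-high neurons, at 2.32, 2.55 and 5.77, against 6 of 9 Kcnn2-low neurons, at 2.04, 9.75 and 11.21. The means of 3.11 ± 1.34 and 7.67 ± 3.82 differed by -4.56. Sqstm1 was over 4 in 1 of 6 against 6 of 9 neurons, with means of 2.66 ± 1.57 and 7.05 ± 3.66 and a difference of -4.39. In both genes neuron 2 was the Kcnn2-high neuron over 4, at 5.77 and 5.78. Sqstm1 shares up to 580 bases of exon with Mrnip, read from the other strand.

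Rnf14, a RING-type ubiquitin ligase, lay at 1.31, 1.71 and 2.12 in Kcnn2-high neurons, with 0 of 6 over 4, against 1.46, 5.59 and 10.30 in Kcnn2-low neurons, with 5 of 9 over 4. Usp22, a deubiquitinase of the SAGA chromatin complex, differed by -3.42, with 0 of 6 against 7 of 9 neurons over 4. Psmb2, a subunit of the proteasome core, differed by -3.62, with 0 of 6 against 5 of 9 neurons over 4. The Kcnn2-high values of these 3 genes all stayed within the low mode, while the Kcnn2-low values covered all modes. In RFP-negative neurons Rnf14 was over 4 in 4 of 7 after EtOH and 4 of 6 after PBS.

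Cmip, the c-Maf-inducing protein, differed by -3.94, with 0 of 6 against 6 of 9 neurons over 4. Cmip, Hmgb1, Id2 and Usp22 were the 4 genes (0.391%) over 4 in 0 Kcnn2-high and in at least 6 Kcnn2-low neurons. Hmgb1, an architectural protein of chromatin, lay at 2.06, 2.59 and 3.62 in Kcnn2-high and at 2.55, 5.19 and 7.34 in Kcnn2-low neurons. It was over 4 in 7 of 7 RFP-negative EtOH neurons, with a mean of 6.96 ± 2.02, and in 2 of 6 PBS neurons. Tcf25, Tmx2, Csnk1a1, Bex3, Snap47 and the RNA helicase gene Ddx5 made up the rest, with differences between -4.02 and -3.40. For 3 of them the difference was over 1.5 times smaller without neurons 13, 14 and 15, at -2.08 for Tcf25, -2.18 for Tmx2 and -1.11 for Ddx5.

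**Figure D3:**
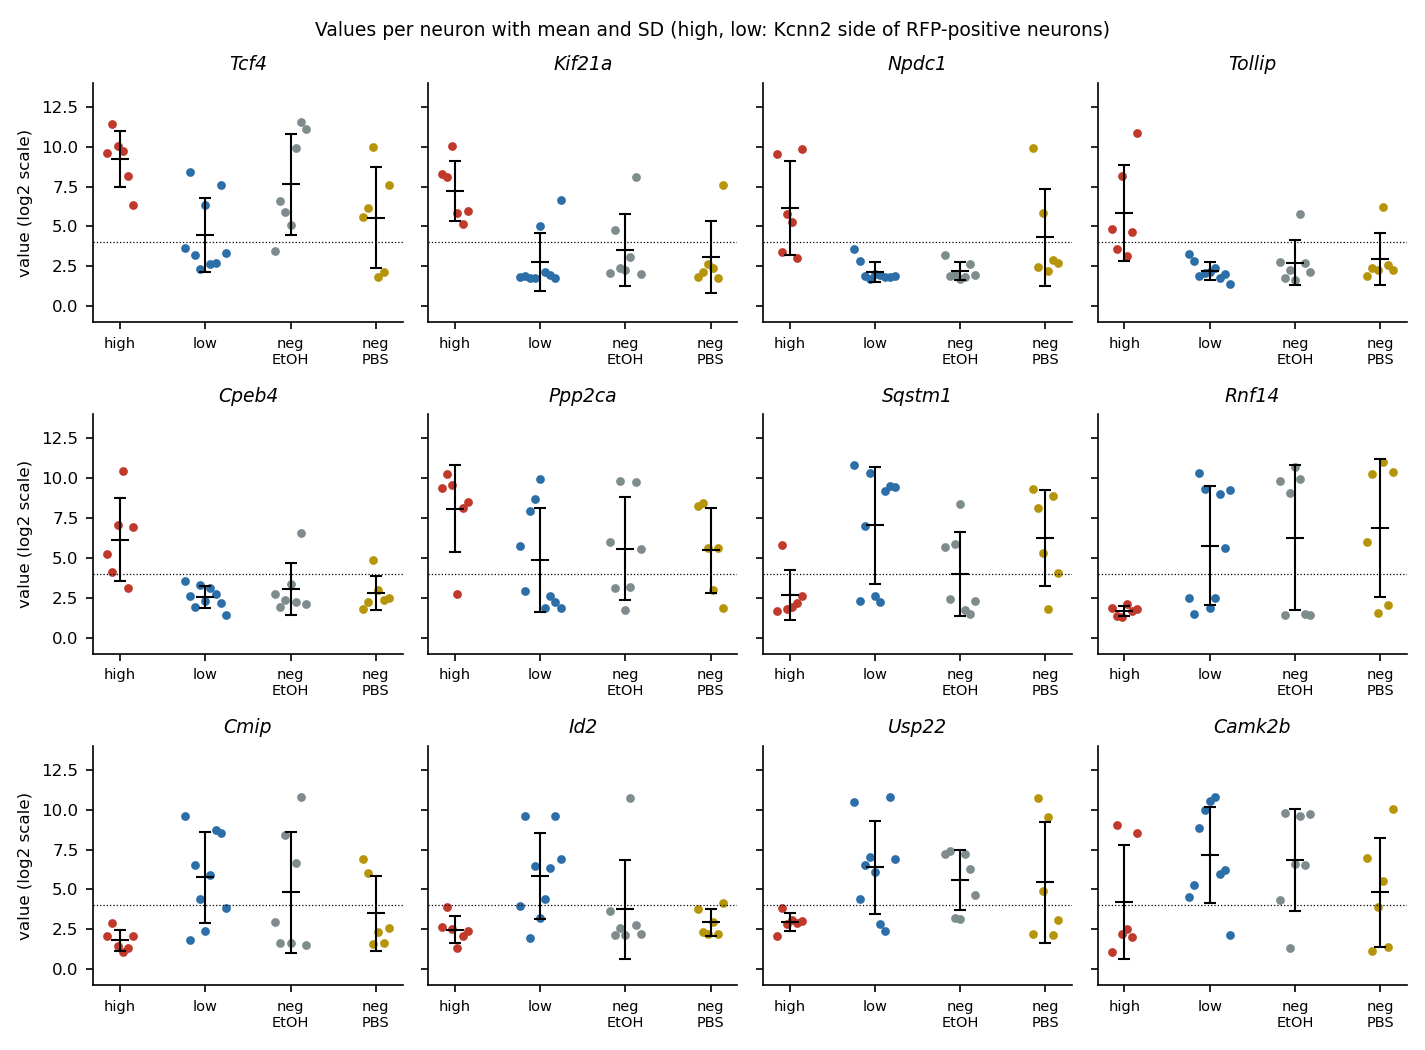
Deposited value (log2 scale) per neuron of 12 genes in Kcnn2-high (n = 6), Kcnn2-low (n = 9), RFP-negative EtOH (n = 7) and RFP-negative PBS neurons (n = 6), with mean and SD in black and the value of 4 as a dotted line. Rnf14, Cmip, Id2 and Usp22 stay below 4 in all 6 Kcnn2-high neurons, and Tcf4 is over 4 in 6 of 6 Kcnn2-high and 6 of 7 RFP-negative EtOH neurons.

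Among genes over 4 in at least 4 of the 15 neurons, those whose level ranked most like Kcnn2 were Ncoa6, a coactivator of nuclear receptors, Gtf3c2, a subunit of the RNA polymerase III factor TFIIIC, Rgs14, a regulator of G protein signalling that limits synaptic plasticity in the mouse hippocampus, Tollip, and the splicing factor gene Sart1. Their Spearman rho with Kcnn2 was 0.95, 0.90, 0.88, 0.85 and 0.82. Of all 1023 genes, counted without that limit, 14 reached 0.8 and 0 reached -0.8. Ncoa6, Gtf3c2, Rgs14 and Tollip were over 4 in 0 of 9 Kcnn2-low neurons. They met the limit only through the Kcnn2-high side, which favours a high rho. In neurons 8, 2, 14, 15, 13 and 3, in falling order of Kcnn2, Ncoa6 was 8.68, 4.19, 5.87, 5.39, 4.41 and 1.82. It lay at 1.29 to 2.72 in the Kcnn2-low neurons. In neurons 13, 14 and 15 Ncoa6, Rgs14 and Kcnn2 had the same order, with Rgs14 at 4.80, 6.08 and 5.36, but in neuron 8, where Kcnn2 was highest, Rgs14 was below 4.

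Part of these correlations lay among values that were all low. Within the 9 Kcnn2-low neurons alone, where neither Kcnn2 nor these genes were over 4 except Sart1 in neuron 1 at 4.52, rho was 0.95 for Ncoa6, 0.93 for Gtf3c2, 0.97 for Rgs14, 0.73 for Tollip and 0.93 for Sart1. This was common to genes at low values. Of the 88 genes at 4 or less in all 9 of these neurons, 73 had a positive rho with Kcnn2 within them, with a median of 0.50, and 17 (19.3%) had a rho of 0.8 or more. The median of a neuron's own values of 4 or less ran from 1.86 to 2.51 over the 9 neurons, and its rho with Kcnn2 was 0.87. When all values of 4 or less were set to 4, rho over the 15 neurons was 0.92 for Ncoa6 but 0.71, 0.72, 0.65 and 0.45 for Gtf3c2, Rgs14, Tollip and Sart1. On that footing Cpeb4, Kif21a and Tcf4 followed Ncoa6, at 0.83, 0.83 and 0.80. All 15 points share the neuron's own library, and the correlations are descriptions.

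Under the same limit the lowest correlations with Kcnn2 were those of Rnf14 (-0.71), Cct6a (-0.69), Hmgb1 (-0.69), Id2 (-0.64) and Psmd4 (-0.625). All of these were over 4 in 0 of 6 Kcnn2-high neurons. They met the limit only through the Kcnn2-low side, which favours a low rho. Cct6a, a subunit of the cytosolic chaperonin, was over 4 in 0 of 6 against 5 of 9 neurons, and Psmd4, a ubiquitin receptor of the proteasome, in 0 of 6 against 4 of 9. With values of 4 or less set to 4, rho was -0.69 for Hmgb1 and -0.61 for Id2, and between -0.54 and -0.47 for Rnf14, Cct6a and Psmd4.

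**Figure D4:**
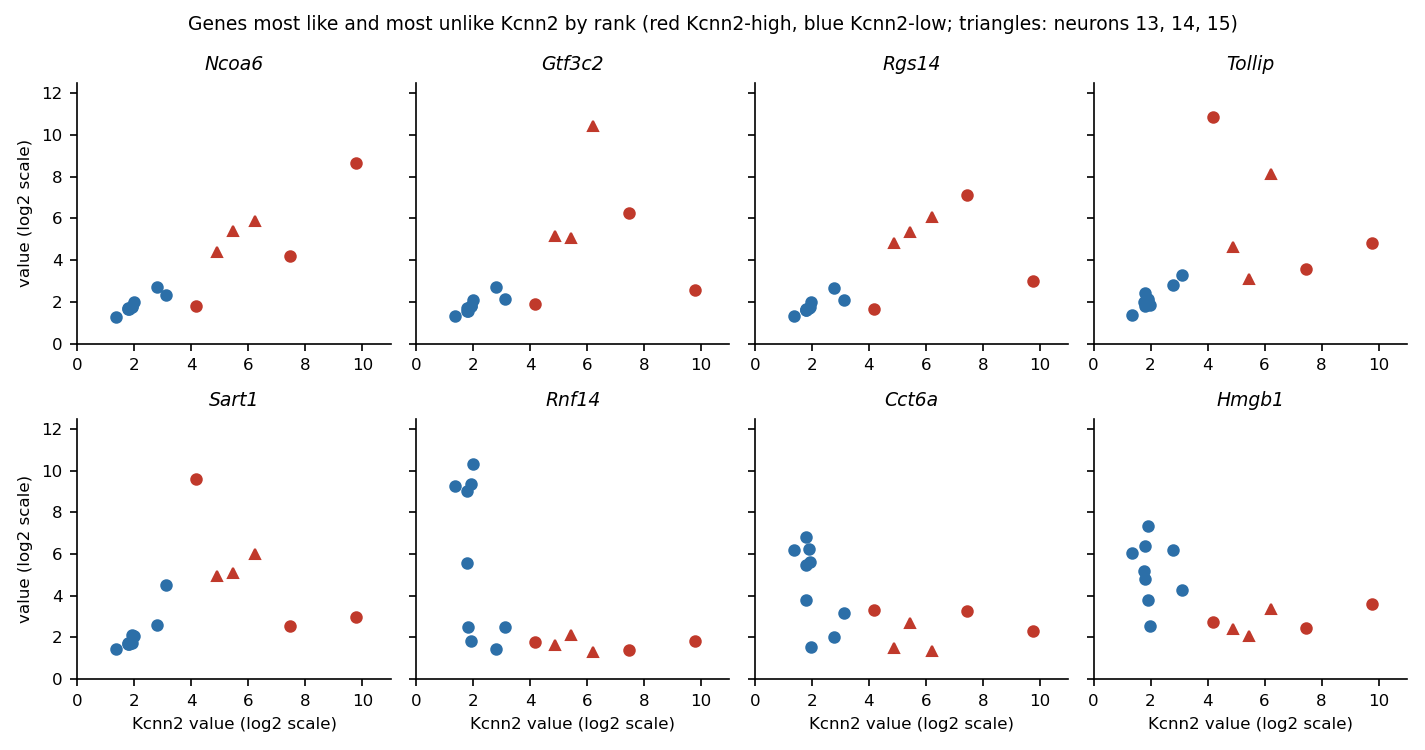
Deposited value of 8 genes against that of Kcnn2 (both log2 scale) in the 15 RFP-positive EtOH neurons, with Kcnn2-high neurons in red, Kcnn2-low neurons in blue and neurons 13, 14 and 15 as triangles. Ncoa6 has a rho of 0.95 with Kcnn2, and 0.95 within the 9 Kcnn2-low neurons alone.

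List medians rested on few genes and neurons. Of 15 lists with a median, 10 had a median of the opposite sign when 1 neuron was left out, and those of 5 kept their sign: mitochondrially encoded genes, nuclear-encoded oxidative phosphorylation, ribosomal proteins, V-ATPase subunits and antioxidant enzymes.

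Among the partners of the SK2 channel, the calmodulin genes Calm2 and Calm3 differed by -0.93 and -0.46. Of the 10 measured genes of calmodulin and calcium-dependent signalling, 4 had higher and 6 lower means, with a median of -0.60 against 0.05 over all genes. The median was 0.18 without neurons 13, 14 and 15, 0.02 without neuron 15, and above 0 also with a dividing value of 5 and after alignment on the values over 4. Camk2b, a subunit of calcium/calmodulin-dependent kinase II, was over 4 in 2 of 6 Kcnn2-high against 8 of 9 Kcnn2-low neurons, at 1.04, 2.35 and 9.03 against 2.16, 6.25 and 10.80. Its difference of -2.94 was -0.95 without neurons 13, 14 and 15. Ppp3ca, the catalytic subunit of calcineurin, differed by -2.47, by -1.60 without neuron 13, and by 0.12 when the neurons were divided at 5. Cacybp, the calcyclin-binding protein, differed by 2.14, by 1.29 without neuron 8 and by 1.30 without neuron 13.

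Ppp2ca, the catalytic subunit of protein phosphatase 2A, was over 4 in 5 of 6 Kcnn2-high neurons, at 2.75, 8.95 and 10.25, against 4 of 9 Kcnn2-low neurons, at 1.84, 2.95 and 9.95. The means of 8.10 ± 2.73 and 4.87 ± 3.25 differed by 3.22, and by 4.51 without neurons 13, 14 and 15. The difference was smaller with a dividing value of 5, at 2.49, and with arithmetic means, at 1.52. Ppp2ca shares up to 1798 bases of exon with a transcript of the other strand, whose reads may be mixed in its values. Prkacb, a catalytic subunit of protein kinase A, was over 4 in 6 of 6 Kcnn2-high neurons, at 6.57, 9.15 and 11.19, and in 5 of 9 Kcnn2-low neurons, at 1.73, 6.43 and 10.74, a difference of 2.77. With arithmetic means the Prkacb difference was 0.75. The regulatory subunits of protein kinase A, which hold the catalytic subunits inactive, had lower means in Kcnn2-high neurons, with differences of -1.38 for Prkar1a, -0.63 for Prkar2a and -1.08 for Prkar2b. Most values of the last 2 were low. Prkar2a was over 4 in 0 of 6 against 1 of 9 neurons and Prkar2b in 1 of 6 against 3 of 9. The Prkar1a difference was smaller than the SD of either side, 3.93 and 3.24, and was -0.76 without neuron 3. Creb1 differed by 0.53. The 6 genes together had 3 higher and 3 lower means, with a median of -0.05 (-0.17 to 0.19 when single neurons were left out). Subunits of protein kinase CK2 were not analysed here.

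Of the 5 measured genes of voltage-gated sodium and calcium channels and their partners, 2 had higher and 3 lower means, with a median of -0.19 (-0.59 to 0.57 when single neurons were left out). Cacna1e, the R-type calcium channel, which can supply calcium to SK2 channels in spines, differed by 2.19, or by 1.40 without neuron 15, with 3 of 6 against 2 of 9 neurons over 4. The potassium channel genes Kcnv1 and Kcnc2 differed by 1.58 and -0.99, each with the sides overlapping, and by 0.22 without neuron 8 and -0.32 without neuron 7. Of the 8 measured genes of GABA synthesis and reception, 3 had higher and 5 lower means, with a median of -0.22 (-0.87 to 0.13 when single neurons were left out).

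Genes of the synaptic vesicle list differed in both directions, with 6 higher and 7 lower means of 13 and a median of -0.02 (-0.57 to 0.53 when single neurons were left out). Rab3a, the main vesicle GTPase of synapses, differed by -2.38, with 4 of 6 against 8 of 9 neurons over 4, whereas its paralog Rab3c was over 4 in 3 of 6 against 1 of 9 and differed by 2.31. The Rab3a difference was -1.45 without neuron 14, -1.49 without neuron 15 and -0.69 without neurons 13, 14 and 15. Of the 7 Rab GTPases, 2 had higher and 5 lower means, with a median of -0.52, which was 0.25 without neuron 12 and 0.22 without neuron 7.

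Ribosomal protein genes had the lowest list median, -0.95, with 6 higher and 14 lower means of 20. Of these, 5 were lower by 2 or more, among them Rpl9 (-2.74) and Rps18 (-2.54), and 2 were higher by 2 or more, Rps19 and Rpl5 (3.70 and 2.18). Rpl9 and Rps18 were over 4 in 0 of 6 Kcnn2-high neurons, against 4 and 5 of 9 Kcnn2-low neurons. The list median was -0.58 without neuron 12 and -0.37 without neurons 13, 14 and 15, and it was 0.12 after alignment on the values over 4, where the median of all genes was 1.11. Ribosomal protein genes have near-identical pseudogene copies, so their values are uncertain.

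Of the 10 mitochondrially encoded genes, 8 had higher and 2 lower means in Kcnn2-high neurons, with a median of 0.83. It was above 0 under every alternative that was run, with a range of 0.16 to 1.26 when single neurons were left out, the lowest without neuron 2, and it was 0.11 among neurons with Gad1 of 4 or less. The largest difference was that of mt-Nd5 at 2.28, which was 1.46 without neuron 13, 1.48 without neuron 15 and 0.92 without neurons 13, 14 and 15, and mt-Nd1 went the other way at -1.96, or -1.23 without neuron 14. Of the 24 nuclear-encoded genes of oxidative phosphorylation, 7 had higher and 17 lower means, with a median of -0.47. The nuclear median was -1.07 without neuron 2, -0.74 without neuron 3, -0.11 without neuron 15, 0.12 without neurons 13, 14 and 15, and 0.60 after alignment on the values over 4. Per neuron, the mean of the 10 mitochondrially encoded genes ran from 6.34 to 10.67 in Kcnn2-high and from 3.43 to 10.49 in Kcnn2-low neurons, so the sides overlapped.

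Antioxidant enzymes had the highest list median, 1.04, with 5 higher and 4 lower means of 9. It was 0.26 without neuron 2, 0.36 without neuron 13, 0.53 without neuron 4, 0.58 without neuron 15 and -0.21 among genes over 4 in at least 4 neurons. Prdx1, a peroxiredoxin of the cytosol, was over 4 in 4 of 6 against 1 of 9 neurons, with means of 6.20 ± 3.31 and 2.80 ± 1.90, and its difference of 3.41 was 2.24 without neurons 13, 14 and 15. Cat, catalase, differed by 2.29, with 2 of 6 against 0 of 9 neurons over 4. Heat shock chaperones of the cytosol had 6 higher and 6 lower means of 12, with a median of 0.16 (-0.34 to 0.58 when single neurons were left out). Hspa8, the constitutive Hsp70, differed by -2.17, or by -1.35 without neuron 14, -1.32 without neuron 15 and -0.57 without neurons 13, 14 and 15, with 4 of 6 against 9 of 9 neurons over 4. Of the 8 endoplasmic reticulum genes, Hspa5, Pdia4 and Atf4 were higher by 1.97, 1.75 and 1.46, and Tmx2, Pdia3 and Selenok lower, with differences of -3.87, -3.17 and -2.30. The Pdia3 difference was -1.53 without neurons 13, 14 and 15. The list median of 0.54 was -1.74 with a dividing value of 5 and -0.01 without neuron 3.

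The remaining lists had medians of -0.09 for 10 proteasome subunits (5 higher and 5 lower), 0.93 for 5 V-ATPase subunits (4 and 1) and -0.53 for 23 axon and cytoskeleton genes (9 and 14). The V-ATPase median was 0.04 without neuron 15 and -0.96 without neurons 13, 14 and 15. The axon and cytoskeleton median was 0.10 without neuron 15 and 0.49 without neurons 13, 14 and 15. In that list Kif5b, a kinesin heavy chain, differed by 3.18, Dynll1, a dynein light chain, by -3.30 and Dync1i1, a dynein intermediate chain, by -2.95. Kif5b differed by 0.09 without neurons 13, 14 and 15. The immediate early genes Fos and Junb differed by 0.69 and -1.05. The Fos difference was -0.32 without neuron 2, -0.17 without neuron 3 and 1.46 without neuron 15, and the Junb difference ran from -2.07 without neuron 13 to -0.43 without neuron 5. Fos was over 4 in 3 of 6 Kcnn2-high and 3 of 9 Kcnn2-low neurons.

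Markers of the cell types were read in the same neurons. Nrgn, a marker of pyramidal neurons, was over 4 in 6 of 6 Kcnn2-high and 9 of 9 Kcnn2-low neurons. Of the other measured pyramidal markers, Mef2c was over 4 in 6 of 6 and 7 of 9, and Sv2b in 5 of 6 and 5 of 9. Gad1, the marker of inhibitory neurons, was over 4 in the Kcnn2-high neurons 2 and 8, at 9.83 and 6.87, and in the Kcnn2-low neuron 12, at 9.38. Neurons 8 and 2 were also those with the highest Kcnn2. Among the neurons with Gad1 of 4 or less, 4 Kcnn2-high and 8 Kcnn2-low ones, Tcf4 differed by 4.32, Kif21a by 4.28 and Sqstm1 by -5.47. These genes were named for their size, and other results did not hold there. Cacybp differed by 0.47 in place of 2.14, and Fos by -0.16 in place of 0.69. The endoplasmic reticulum list median was -0.41 in place of 0.54, and that of the Rab GTPases 0.76 in place of -0.52.

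Of the astrocyte markers, Slc1a2 was over 4 in 2 of 6 against 6 of 9 neurons and Aldoc in 2 of 6 against 1 of 9. The oligodendrocyte marker Mbp was over 4 in 2 of 6 against 2 of 9, and of the microglia markers Csf1r in 2 of 6 against 0 of 9 and Cst3 in 3 of 6 against 4 of 9. Among the Kcnn2-high neurons Mbp was highest in neuron 2, at 8.48, and Slc1a2 in neurons 2 and 13, at 8.70 and 8.66. The part of other cells' RNA in the differences was not tested.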

How the data were processed

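RNA of 28 single M1 neurons was amplified, and libraries were read for 51 cycles, per the labels' protocols. CASAVA 1.8 and the FASTX-Toolkit made and filtered the reads, per the labels' protocols, and Bowtie2, Cufflinks 2.2.1 and GRCm38 are named in the submitters' processing notes. The deposited values, of 1024 genes above the authors' cut off, are on a log scale taken here as log2, since the base is not stated. The filter, the amplification and the missing depth limit what a low value means.

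The 15 reporter-positive neurons were divided at a Kcnn2 value of 4. For each other gene the difference of means, Kcnn2-high minus Kcnn2-low, the overlap of the sides, the number of neurons over 4 and the Spearman rho with Kcnn2 were computed (pandas 2.3.3, scipy 1.17.1). No test was made, because each sample is 1 neuron and animals are not named. Named were the 12 largest differences in each direction among genes over 4 in at least 50% of the higher side, up to 10 genes without overlap, 5 rank correlations in each direction and up to 3 members of each list. Results that name 5 of these genes are not reported here, and the genes stay in all counts. Members and lists were chosen with earlier results of these data known. IDs were matched to GENCODE M21 for exon overlaps. Of the 33 genes named for size, separation or rank correlation, 9 share exon bases with a gene of the other strand. Among them are Snx22 (up to 496 bases), Cct6a (452), Sart1 (368) and Snap47 (307), and reads of both genes may be mixed in their values.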

Additional observations from a re-analysis of the deposited data

Results flagged for a closer look

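In the 7 RFP-negative EtOH and 6 RFP-negative PBS neurons, 15 of 54 gene and group pairs held 1 neuron far from the rest of its group. A chance rate of about 1 in 20 was assumed, and it was not measured on these values, which have a low, a middle and an upper mode. The share flagged among the other genes was not counted, so whether 15 of 54 is more than usual was not tested. Among the genes with higher means in Kcnn2-high neurons, the stray value was the highest of its group. It was 7.60 for Kif21a in PBS neuron 6 (others 1.75 to 2.66), 5.03 for Rps19 in PBS neuron 4, 3.95 for Polr3k in PBS neuron 5 and 7.73 for Mycbp2 in EtOH neuron 2. For Tollip it was 5.77 in EtOH neuron 5 and 6.22 in PBS neuron 4, and for Impad1 10.58 in EtOH neuron 4 and 5.27 in PBS neuron 4. Cpeb4 had 6.57 in EtOH neuron 6 and Syt13 4.73 in EtOH neuron 3.

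Csf1r had 11.36 in EtOH neuron 7 (others 2.07 to 3.30) and 6.76 in PBS neuron 6. Among the genes with lower means in Kcnn2-high neurons, EtOH neuron 5 stood apart with 10.35 for Tcf25 and 9.59 for Tmx2. Snap47 was 1.14 in EtOH neuron 4, against 6.77 to 9.74 in the other 6.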

How the results depend on the processing

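The 24 genes named for size kept their sign under each alternative run, but they were picked for the largest differences in the same neurons. Kept signs therefore say little. Of their 623 values over all alternatives, 11 were under 2 in size. The counts of 112 higher and 96 lower genes were 206 and 312 with arithmetic means, 302 and 21 after alignment on the median of values over 4, and 38 and 34 with values of 4 or less set to 4, and ran from 104 to 139 and from 88 to 128 when single neurons were left out. The 2 genes with Kcnn2-high neurons above were 14 without the 2 neurons nearest to the dividing value, 1 after alignment on the upper quartile, 6 on the median of values over 4, 1 among genes over 4 in at least 4 neurons, 0 with low values set to 4, 7 among neurons with Gad1 of 4 or less, 6 without neurons 1 and 2, and 7 without neurons 13, 14 and 15 (chosen after seeing the data), with 2 to 8 when single neurons were left out. The 1 gene with Kcnn2-high neurons below was 2 with a dividing value of 5, 4 with Gad1 of 4 or less, 2 without neurons 1 and 2 or without 13, 14 and 15, and 0 under the upper quartile, the median of values over 4, the gene filter and low values set to 4, with 1 to 2 when single neurons were left out. The proteasome list median of -0.09 was -0.89 with a dividing value of 5, 0.48 without the 2 nearest neurons, -1.65 with arithmetic means, 0.97 after alignment on the median, -1.57 without neurons 13, 14 and 15, and -0.93 to 0.39 when single neurons were left out. The endoplasmic reticulum median was -1.74 with a dividing value of 5, and the antioxidant median -0.21 under the gene filter. Ppp3ca was 0.12 with a dividing value of 5. The cause was not tested. With a dividing value of 5, 72 genes remained higher, 64.3% of 112 and 52.2% of 138, and 43 lower, 44.8% of 96 and 50.6% of 85. No paired analysis was possible because the results come from no test and a replicate number only counts neurons. Depth is unknown.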
